A study of Homo sapiens with 12 samples.

Results

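Genes of sterol and fatty acid synthesis were followed in HepG2 cells after knockdown of each form of β-catenin. The members were 44 gene symbols, chosen by name from the enzymes of cholesterol, fatty acid and glycerolipid synthesis and the factors that govern them. They were chosen with earlier results of these data known, so their shares beside those of all genes are a description. Of the 44, 38 had a probe set named in the annotation of the array, among 14884 named genes in all. FDFT1, LSS, CYP51A1, SC5D, ME1 and GPAM were not analysed here. HepG2 is an established line from a human liver tumour, and in all groups 1 allele of its β-catenin gene lacks exon 3, so that a truncated protein without the sites for its degradation is made beside the full-length protein. Small interfering RNAs were aimed at the full-length form (sißCat-WT), the truncated form (sißCat-mut) or both forms (sißCat-both), a control RNA served as siCtrl, and all samples are labelled 120 h. Each group held 3 arrays, 12 in all. Whether the triplicates came from different cultures is not labelled, and the spread behind every p-value may therefore be technical only. The comparisons ask how the expression of these genes differs after each knockdown. Effects of each RNA other than loss of its target were not tested and cannot be told apart from that loss.

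Cholesterol and fatty acids are both built from cytosolic acetyl-CoA. The sterol branch runs through mevalonate, isoprenoid units and squalene, and the fatty acid branch through malonyl-CoA to palmitate, which is then desaturated, elongated and stored as triglyceride. In the liver both branches are switched on by the sterol regulatory element binding proteins, membrane-bound transcription factors encoded by SREBF1 and SREBF2: SCAP escorts them to the Golgi for cleavage when sterols are scarce, and the INSIG proteins hold them back. SREBF2 is best known for the sterol enzymes and SREBF1 for the fatty acid enzymes, while MLXIPL encodes the carbohydrate response factor ChREBP, which also drives lipogenesis.

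The values are log2 intensities on which a difference of 1 is a 2-fold change. Levels of different genes cannot be set against each other, since each probe set binds with its own strength. The median over all probe sets was 4.71 to 4.78 per array, close to the floor of the array, where changes are compressed. Across genes, arrays of 1 group had r = 0.994 to 0.997, and no array repeated another. The probe sets of the targeted gene were not analysed here, so the groups rest on the labels. Of 15 hepatocyte markers 13 were measured, and their mean level per array was 12.17 to 12.21 after siCtrl, 11.88 to 12 after sißCat-WT, 12.67 to 12.74 after sißCat-mut and 12.64 to 12.68 after sißCat-both. The level of these markers differed between the groups in the same order as that of many sterol genes, and their part in the results was not tested. In bulk RNA, fewer cells expressing a gene and less of its RNA per cell cannot be told apart. Of 10 fibroblast and 8 endothelial markers 4 and 6 were measured, with mean levels of 4.31 to 4.63 and 4.23 to 4.53 per array, near the floor. Single markers lay above the array medians, with group means of 5.88 to 6.74 for DES, 5.34 to 5.51 for THY1 and 5.93 to 6.1 for CLDN5. Of 9 leukocyte markers 4 were measured (8.31 to 8.55), with LYZ and CD68 high and CD14 and CSF1R low, and of 6 cholangiocyte markers 5 (8.8 to 9.23), with KRT7 low.

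The replicate number went with the level of these genes in the knockdown groups. The first array was highest of its group for 32 of the 38 members after sißCat-both, 23 after sißCat-mut and 22 after sißCat-WT. Among all genes these arrays were highest for 34.99%, 38.81% and 33.71%. The third array was lowest of its group for 21, 29 and 25 members in the same order (34.06%, 44.25% and 36.81% of all genes). In siCtrl the first array was highest for 13 members and the third lowest for 14 (35.07% and 35.18% of all genes).

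NF-Y and Sp1 are known partners of the sterol regulatory factors at promoters. The stretches printed here show the sequence around the searched boxes for the members with the largest called change of their role after sißCat-mut, and for ACLY, whose direction differed between sißCat-mut and sißCat-both. ELOVL6 and LPIN1, which led their roles, had no CCAAT in the window. RefSeq promoters (GRCh38.p14) were matched for 32 of the 38 members, 45 promoters in all, and the 250 bases before each gene start were searched on both strands. The sterol regulatory element, spelled here TCACNCCAC, was found in 1 of the 45 promoters (2.22%), that of SREBF2, and in 0.883% of all 35116 promoters. The NF-Y box CCAAT was found in 55.6% of the members' promoters and in 32.0% of all promoters, and the Sp1 box GGGCGG in 82.2% and 42.6%. Matches of different motifs were counted even where they overlap. Of the 28 members that were higher after sißCat-mut, 24 had a matched promoter, 18 of these an NF-Y box and 23 an Sp1 box. Of the other 10 members 8 had a promoter, 4 an NF-Y box and 6 an Sp1 box. These counts are of genes with a box in any of their promoters, unlike the shares above, which are of promoters. For a gene with several promoters, the stretch printed is from the first with a CCAAT or sterol regulatory match. A match is a description of the sequence and does not show that a protein binds there. Other spellings of the sterol regulatory element were not searched, so a promoter without a match is not shown to lack it. Each stretch is written 5′ to 3′ on the strand of its gene, with CCAAT or its reverse complement in capitals, and in SREBF2 also the sterol regulatory element.

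MVD (mevalonate diphosphate decarboxylase), chr16:88663132-88663211, minus strand: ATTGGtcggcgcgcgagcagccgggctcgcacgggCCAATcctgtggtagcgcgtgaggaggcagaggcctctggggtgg
TM7SF2 (sterol C14 reductase), chr11:65111763-65111842, plus strand: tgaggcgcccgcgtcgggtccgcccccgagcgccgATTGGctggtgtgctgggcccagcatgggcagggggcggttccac
SREBF2 (the sterol regulatory factor), chr22:41832937-41833016, plus strand: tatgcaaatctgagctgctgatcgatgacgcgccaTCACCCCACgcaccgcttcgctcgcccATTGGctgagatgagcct
STARD4 (sterol carrier), chr5:111512621-111512700, minus strand: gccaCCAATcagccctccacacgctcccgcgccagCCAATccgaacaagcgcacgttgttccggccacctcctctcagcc
ACSS2 (acetyl-CoA synthetase), chr20:34874831-34874910, plus strand: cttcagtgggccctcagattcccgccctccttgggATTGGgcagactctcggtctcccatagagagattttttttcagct
ACACB (acetyl-CoA carboxylase 2), chr12:109154432-109154511, plus strand: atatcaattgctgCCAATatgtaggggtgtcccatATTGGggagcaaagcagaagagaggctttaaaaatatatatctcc
ACLY (ATP citrate lyase), chr17:41919023-41919102, minus strand: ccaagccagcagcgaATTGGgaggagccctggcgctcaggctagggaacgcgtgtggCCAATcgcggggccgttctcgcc

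After knockdown of the full-length form, 11 of the 38 members fell against siCtrl and 0 rose (1 higher and 16 lower at an unadjusted p under 0.05 in limma). Among all genes 4.97% fell and 5.2% rose at the same threshold, a limma adjusted p under 0.05, or 10.2% in all. The median log2 change of the members was -0.18, beside 0.005 for all genes, and no member passed a 2-fold change. Within the list the decrease was spread over 5 of 7 enzymes from squalene to cholesterol and 1 member of each of 6 other role groups, and 0 of the 5 desaturation and elongation genes passed. The calls depended on single arrays: 4 members passed without the third sißCat-WT array, 5 without siCtrl replicate 2, 6 without siCtrl replicate 1 and 7 without sißCat-WT replicate 2. ACAT2, SQLE, AACS and DGAT1 passed under every alternative tried. The other 27 members did not pass, 9 with positive and 18 with negative log2 changes. When only the groups compared were fitted, or without the first arrays of sißCat-mut and sißCat-both, SREBF1 and DGAT2 passed upward. The arrays of the 2 groups did not overlap for 20 members, 2 of them higher (30.3% of all genes, 15.5% higher and 14.8% lower).

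After knockdown of the truncated form, 28 of the 38 members rose and 2 fell. Among all genes 12% rose and 13.6% fell, 25.6% in all. The median log2 change was 0.46, beside 0.011 for all genes, and ACSS2, STARD4 and LPIN1 rose more than 2-fold. All 7 mevalonate enzymes, all 7 later sterol enzymes and both sterol transfer genes passed upward, and so did 3 of 5 desaturation and elongation genes and 3 of 4 glycerolipid genes. The 2 members that fell were INSIG2 and THRSP. Of the 30 calls 25 held under every alternative tried, all of these upward. The arrays did not overlap for 34 members, 31 of them higher (40.7% of all genes, 20% higher and 20.6% lower).

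After knockdown of both forms, 20 members rose and 4 fell. Among all genes 15.5% rose and 18.1% fell, 33.6% in all. The median log2 change was 0.30, beside -0.006 for all genes, DGAT2 and MVK rose at least 2-fold, and INSIG2 fell more than 2-fold. Of the 14 measured sterol enzymes 10 rose, but 0 of the 5 desaturation and elongation genes passed, and ACLY, AACS and DGAT1 fell beside INSIG2. Without the first sißCat-both array 19 members rose and 7 fell: SREBF1, FASN and ACACA then joined the members that fell, and HMGCS1 left those that rose (adjusted p = 0.0501). The arrays did not overlap for 25 members, 21 of them higher (43.8% of all genes, 20.7% higher and 23.1% lower). The 3 comparisons share the siCtrl arrays, so their values are not independent of each other.

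Set directly against each other, 32 members were higher and 1 lower after sißCat-mut than after sißCat-WT, beside 14% higher and 17% lower among all genes (31% in all). The median difference was 0.67 on the log2 scale (0.001 for all genes). The arrays did not overlap for 33 members, 32 of them higher (43.2% of all genes, 20.2% higher and 23% lower). After sißCat-both, 23 members were higher and 4 lower than after sißCat-WT (16.1% and 20.1% of all genes, 36.2% in all), with a median of 0.60. Here the arrays did not overlap for 28 members, 23 of them higher (44.3% of all genes, 20.2% higher and 24.1% lower). With the replicate number as a block, 24 members were higher and 5 lower: FADS1 (0.22, adjusted p = 0.0456) and FASN (-0.27, adjusted p = 0.0329) were added. Against sißCat-mut, the sißCat-both group had 15 members lower and 2 higher (11.6% and 10.6% of all genes, 22.2% in all), with a median of -0.24. The arrays did not overlap for 17 members, 4 of them higher (33.6% of all genes, 16.2% higher and 17.4% lower). Without the first sißCat-both array 21 members were lower than after sißCat-mut: LPIN1 (-0.51), MVD (-0.44), DGAT1 (-0.42), TM7SF2 (-0.38), ELOVL5 (-0.31) and ACACA (-0.23) were added, with adjusted p = 0.00571, 0.0097, 0.00668, 0.0218, 0.0161 and 0.0369. Against sißCat-WT 6 members were then lower in place of 4, with FASN (-0.41, adjusted p = 0.0105) and ACACA (-0.20, adjusted p = 0.0455) added.

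All 27 calls of sißCat-both against sißCat-WT held under every alternative tried. In sißCat-mut against sißCat-WT 28 of 33 held: leaving out any of 9 single arrays ended the call of AACS, any of 5 that of SCD and any of 4 each that of ELOVL5, FADS1 and THRSP (adjusted p up to 0.12, 0.0929, 0.0907, 0.0725 and 0.0879). With renewed quantile normalization that difference of SCD was 0.08 (adjusted p = 0.478), and with only the groups compared that of AACS had an adjusted p of 0.0755. In sißCat-both against sißCat-mut 12 of 17 held, and the calls of EBP and HMGCS1 each ended without any of 8 single arrays, those of SREBF1 and SCD each without any of 4 and that of FASN without any of 3 (adjusted p up to 0.17, 0.143, 0.0816, 0.0925 and 0.0684). As a description of the order of the group means, sißCat-WT was the lowest group for 25 members and sißCat-mut the highest for 26.

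**Figure D1:**
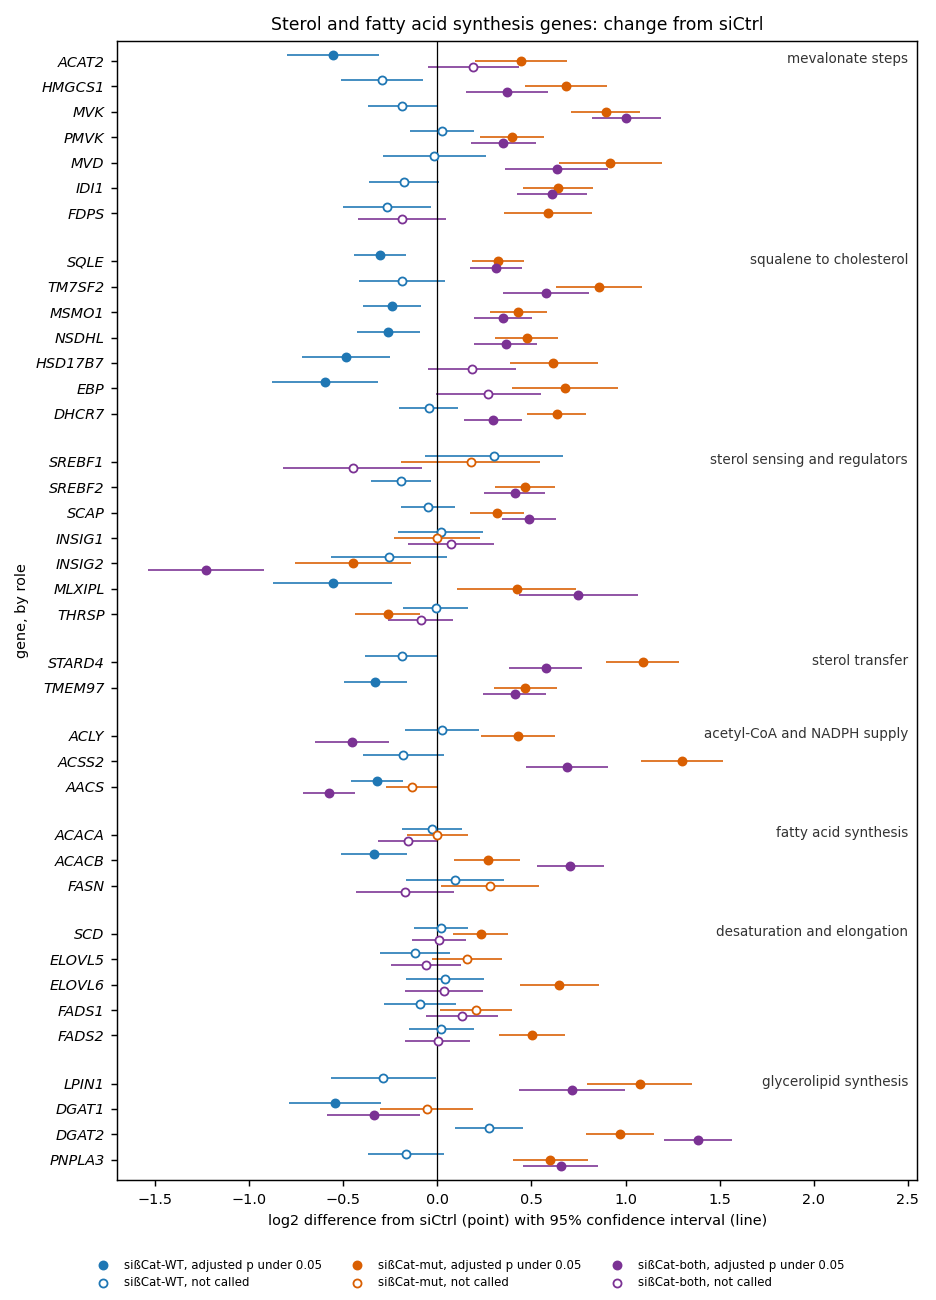
Log2 difference from siCtrl (horizontal axis) of each of the 38 measured members, ordered by role, for sißCat-WT (blue), sißCat-mut (orange) and sißCat-both (purple), with 95% confidence intervals of the fit; filled points passed an adjusted p under 0.05. The filled blue points all lie below 0, 28 of the 30 filled orange points lie above 0, and 20 of the 24 filled purple points lie above 0, with ACLY, AACS, DGAT1 and INSIG2 below it.

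Along the mevalonate steps, ACAT2 makes acetoacetyl-CoA from acetyl-CoA and opens the pathway. Its level was 10.18, 10.22 and 10.03 on siCtrl replicates 1, 2 and 3, 9.73, 9.69 and 9.34 after sißCat-WT, 10.67, 10.63 and 10.47 after sißCat-mut and 10.48, 10.35 and 10.18 after sißCat-both. The sißCat-WT arrays lay below every siCtrl array and the sißCat-mut arrays above them, while sißCat-both overlapped siCtrl. ACAT2 fell by 0.56 ± 0.11 after sißCat-WT (log2 difference with its SE, 3 arrays in each group, adjusted p from limma = 0.00613) and rose by 0.45 ± 0.11 after sißCat-mut (adjusted p = 0.00933). Its change after sißCat-both was 0.19 ± 0.11 (adjusted p = 0.229).

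MVD, the decarboxylase that makes isopentenyl diphosphate, stood at 9.66, 9.59 and 9.64 after siCtrl, 9.72, 9.66 and 9.46 after sißCat-WT, 10.70, 10.58 and 10.36 after sißCat-mut and 10.58, 10.04 and 10.16 after sißCat-both. Only the sißCat-WT arrays overlapped the siCtrl arrays, and the first array of sißCat-both was higher than the other 2. MVD rose 1.89-fold after sißCat-mut (log2 difference 0.92 ± 0.13, adjusted p = 0.00012), the largest rise of the 7 mevalonate genes, and 1.55-fold after sißCat-both (adjusted p = 0.00139). Its difference between sißCat-both and sißCat-mut was -0.29 ± 0.13 with all arrays (adjusted p = 0.138) and -0.44 without the first sißCat-both array (adjusted p = 0.0097).

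MVK phosphorylates mevalonate. Its level was 8.54, 8.49 and 8.58 after siCtrl, 8.45, 8.38 and 8.21 after sißCat-WT, 9.49, 9.47 and 9.33 after sißCat-mut and 9.66, 9.52 and 9.43 after sißCat-both, so that the sißCat-mut and sißCat-both arrays overlapped each other and lay wholly above the rest. MVK rose 1.86-fold after sißCat-mut and 2-fold after sißCat-both (adjusted p = 4.54e-06 and 9.39e-07). The difference between these 2 groups was 0.11 ± 0.09, with a 95% confidence interval of -0.08 to 0.29.

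The other mevalonate genes rose after sißCat-mut by 0.40 for PMVK, which adds the second phosphate, 0.59 for the farnesyl diphosphate synthase FDPS, 0.64 for the isomerase IDI1 and 0.69 for HMGCS1, which condenses acetoacetyl-CoA to HMG-CoA. After sißCat-both, IDI1, HMGCS1 and PMVK rose by 0.61, 0.37 and 0.35. FDPS did not follow them: its level was 8.002, 8.20 and 8.21 after siCtrl, 7.91, 7.92 and 7.78 after sißCat-WT, 8.78, 8.84 and 8.56 after sißCat-mut and 8.14, 7.74 and 7.97 after sißCat-both. It was lower after sißCat-both than after sißCat-mut by 0.78 (log2 difference -0.78 ± 0.11, adjusted p = 0.000177). Against siCtrl its change after sißCat-both was -0.19 (adjusted p = 0.218) and, with the mean of its 2 probe sets, -0.47 (adjusted p = 0.00725). The second probe set had group means of 8.25 after siCtrl, 7.71 after sißCat-WT, 8.63 after sißCat-mut and 7.499 after sißCat-both. After sißCat-WT the other 6 mevalonate genes had log2 changes of -0.30 to 0.03 and did not pass. HMGCS1 was the nearest (adjusted p = 0.0883), with every sißCat-WT array below every siCtrl array, and it passed without the first sißCat-both array (adjusted p = 0.0491).

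Between squalene and cholesterol, EBP shifts a double bond of the sterol ring. Its level was 9.75, 9.74 and 9.68 after siCtrl, 9.36, 9.07 and 8.95 after sißCat-WT, 10.41, 10.54 and 10.25 after sißCat-mut and 10.27, 9.97 and 9.75 after sißCat-both. The sißCat-WT arrays were the lowest and the sißCat-mut arrays were above all siCtrl arrays, while the sißCat-both arrays reached from the siCtrl range to above it. EBP fell 1.51-fold after sißCat-WT (log2 difference -0.60 ± 0.13, adjusted p = 0.00989) and rose 1.6-fold after sißCat-mut (0.68 ± 0.13, adjusted p = 0.0015). The decrease did not pass without the third sißCat-WT array (-0.51, adjusted p = 0.0536). The difference between sißCat-mut and sißCat-WT was 1.27 ± 0.13 (adjusted p = 5.24e-06), the largest of the 7 later sterol enzymes.

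TM7SF2 reduces a sterol double bond at carbon C14. It stood at 7.27, 7.37 and 7.26 after siCtrl, 7.26, 7.17 and 6.89 after sißCat-WT, 8.21, 8.21 and 8.05 after sißCat-mut and 8.07, 7.80 and 7.75 after sißCat-both. The sißCat-mut and sißCat-both arrays lay above all siCtrl and sißCat-WT arrays. TM7SF2 rose 1.81-fold after sißCat-mut (log2 difference 0.86 ± 0.11, adjusted p = 4.45e-05) and 1.49-fold after sißCat-both (adjusted p = 0.000717). Its change after sißCat-WT was -0.19 ± 0.11 (adjusted p = 0.351).

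SQLE, which oxidises squalene and is a rate-limiting step of the branch, showed small changes with little spread. Its level was 10.15, 10.22 and 10.22 after siCtrl, 9.90, 9.89 and 9.89 after sißCat-WT, 10.57, 10.51 and 10.48 after sißCat-mut and 10.57, 10.48 and 10.48 after sißCat-both. The sißCat-WT arrays were below all others, and the sißCat-mut and sißCat-both arrays overlapped each other above siCtrl. It fell by 0.30 ± 0.06 after sißCat-WT (adjusted p = 0.00836) and rose by 0.32 ± 0.06 and 0.31 ± 0.06 after sißCat-mut and sißCat-both (adjusted p = 0.002 and 0.00163).

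The demethylation enzymes MSMO1, NSDHL and HSD17B7, which act in turn on the C4 methyl groups, and the last enzyme DHCR7 complete the branch. After sißCat-mut they rose by 0.43, 0.48, 0.62 and 0.63. After sißCat-both MSMO1, NSDHL and DHCR7 rose by 0.35, 0.36 and 0.29, and HSD17B7 had a change of 0.18 (adjusted p = 0.235). HSD17B7 and DHCR7 were lower after sißCat-both than after sißCat-mut by 0.44 and 0.34 (log2 differences -0.44 ± 0.11 and -0.34 ± 0.07, adjusted p = 0.0103 and 0.00375). After sißCat-WT HSD17B7, NSDHL and MSMO1 fell by 0.49, 0.26 and 0.24, with adjusted p = 0.0111, 0.0489 and 0.0469. DHCR7 changed by -0.05 (adjusted p = 0.805). The 2 weaker of these calls ended when any of 9 single arrays (NSDHL) or 10 (MSMO1) was left out, with adjusted p up to 0.155 and 0.143. That of HSD17B7 ended without siCtrl replicate 2 (adjusted p = 0.056) and without the third sißCat-WT array (0.0592).

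The sterol transfer genes are STARD4, a carrier of cholesterol between membranes, and TMEM97, a membrane protein of the sterol response. STARD4 stood at 9.15, 9.47 and 9.37 after siCtrl, 9.05, 9.13 and 9.23 after sißCat-WT, 10.41, 10.45 and 10.41 after sißCat-mut and 9.99, 9.80 and 9.92 after sißCat-both. The groups were in 3 separate tiers, with sißCat-mut above sißCat-both and both above the other arrays. STARD4 rose 2.13-fold after sißCat-mut (log2 difference 1.09 ± 0.09, adjusted p = 1.36e-06) and 1.49-fold after sißCat-both (0.58 ± 0.09, adjusted p = 0.000186). The gap between these groups was -0.52 ± 0.09 (adjusted p = 0.000969).

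TMEM97 was at 11.75, 11.74 and 11.72 after siCtrl, 11.48, 11.44 and 11.30 after sißCat-WT, 12.14, 12.21 and 12.26 after sißCat-mut and 12.27, 12.07 and 12.10 after sißCat-both. Here sißCat-mut and sißCat-both overlapped, and sißCat-WT was below every other array. TMEM97 fell by 0.33 ± 0.08 after sißCat-WT (adjusted p = 0.0149) and rose by 0.47 ± 0.08 after sißCat-mut (adjusted p = 0.000485) and 0.41 ± 0.08 after sißCat-both (adjusted p = 0.000826). Its decrease did not pass without siCtrl replicate 1 (adjusted p = 0.0532), siCtrl replicate 2 (0.0556) or the third sißCat-WT array (0.0765).

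**Figure D2:**
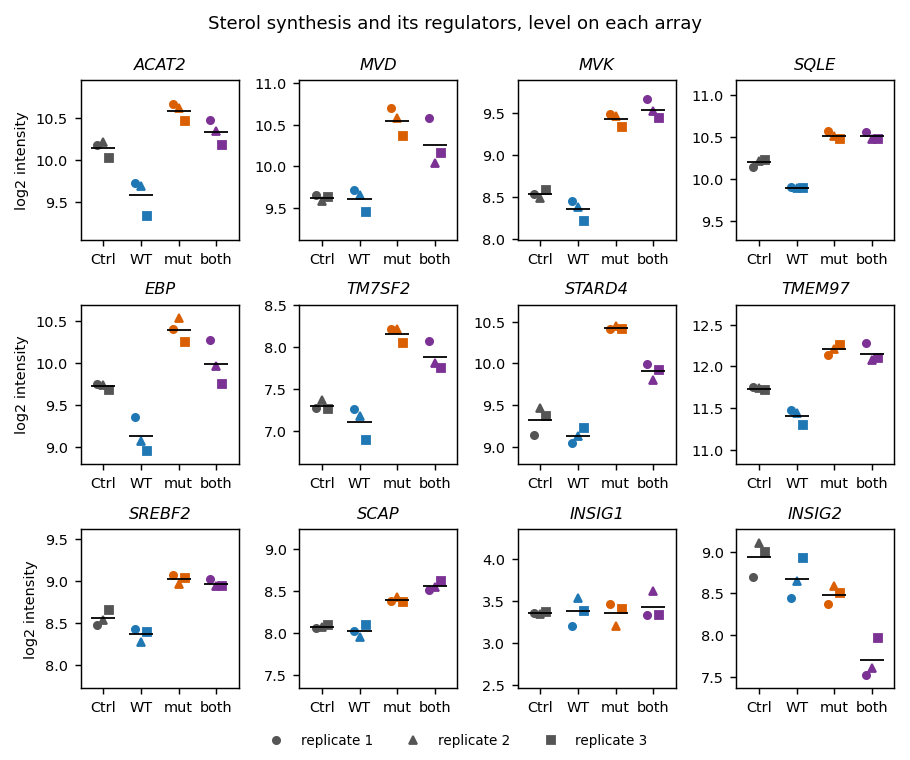
Log2 intensity (vertical axis) of 12 sterol synthesis genes and regulators on each of the 12 arrays, by group, with a symbol for each replicate number and a bar at the group mean; each panel has its own scale. MVK, TM7SF2 and SREBF2 are higher after sißCat-mut and sißCat-both than on every siCtrl array, INSIG2 is lowest after sißCat-both, and INSIG1 stays between 3.20 and 3.62 on all arrays.

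Among the regulators, SREBF2 rose in the groups in which most sterol enzymes rose. Its level was 8.48, 8.54 and 8.66 after siCtrl, 8.43, 8.27 and 8.39 after sißCat-WT, 9.07, 8.97 and 9.03 after sißCat-mut and 9.02, 8.94 and 8.94 after sißCat-both. The sißCat-mut and sißCat-both arrays were above every siCtrl array. SREBF2 rose 1.38-fold and 1.33-fold (log2 differences 0.46 ± 0.08 and 0.41 ± 0.08, adjusted p = 0.000378 and 0.00062), and its change after sißCat-WT was -0.19 ± 0.08 (adjusted p = 0.136). SCAP, the escort of its protein, rose by 0.32 after sißCat-mut and 0.49 after sißCat-both (adjusted p = 0.00273 and 6.19e-05).

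SREBF1 did not share this pattern. It stood at 7.52, 7.43 and 7.40 after siCtrl, 7.82, 7.67 and 7.77 after sißCat-WT, 7.75, 7.68 and 7.45 after sißCat-mut and 7.55, 6.75 and 6.71 after sißCat-both. In sißCat-both the first array lay within the range of sißCat-mut, and the other 2 arrays were lower than every array of the other groups. With all arrays its change after sißCat-both was -0.45 ± 0.17 (adjusted p = 0.059), and without the first sißCat-both array it was -0.72 (adjusted p = 7.32e-05). With all arrays it also passed with the replicate block, array weights, without dim genes and with median centring (adjusted p = 0.0277, 0.0327, 0.0378 and 0.0494). It was lower after sißCat-both than after sißCat-WT by 0.75 ± 0.17 (adjusted p = 0.00302) under every alternative tried. The changes of SREBF1 after sißCat-WT and sißCat-mut were 0.30 ± 0.17 and 0.18 ± 0.17 (adjusted p = 0.354 and 0.529). The first of these passed without the first sißCat-both array (adjusted p = 0.0403).

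The INSIG genes differed from each other. INSIG2, which retains the SCAP complex in the endoplasmic reticulum, was at 8.70, 9.10 and 8.998 after siCtrl, 8.45, 8.65 and 8.92 after sißCat-WT, 8.37, 8.59 and 8.51 after sißCat-mut and 7.53, 7.61 and 7.97 after sißCat-both. Its sißCat-both arrays were below all other arrays. INSIG2 fell 2.34-fold after sißCat-both (log2 difference -1.23 ± 0.14, adjusted p = 1.47e-05), was lower there than after sißCat-mut by 0.78 ± 0.14 (adjusted p = 0.00137), and fell by 0.45 ± 0.14 after sißCat-mut (adjusted p = 0.0335). The last of these ended when siCtrl replicate 2 or 3 or sißCat-mut replicate 1 or 3 was left out (adjusted p = 0.0715 to 0.137). INSIG1, its partner and a target of the sterol factors, was at 3.36, 3.35 and 3.37 after siCtrl, 3.20, 3.54 and 3.39 after sißCat-WT, 3.47, 3.20 and 3.40 after sißCat-mut and 3.33, 3.62 and 3.34 after sißCat-both. These levels lie below the median of all probe sets, at the floor of the array, so a change of INSIG1 could not be read from this probe set.

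MLXIPL, the gene of ChREBP, stood at 8.23, 7.95 and 7.98 after siCtrl, 7.84, 7.37 and 7.28 after sißCat-WT, 8.59, 8.44 and 8.39 after sißCat-mut and 9.03, 8.56 and 8.82 after sißCat-both. The order of the groups was sißCat-WT, siCtrl, sißCat-mut and sißCat-both, and the last 2 overlapped. MLXIPL rose by 0.75 ± 0.15 after sißCat-both (adjusted p = 0.0011), fell by 0.56 ± 0.15 after sißCat-WT (adjusted p = 0.0277) and rose by 0.42 ± 0.15 after sißCat-mut (adjusted p = 0.0489). The calls after sißCat-WT and sißCat-mut ended when any of 5 and 7 single arrays was left out (adjusted p up to 0.127 and 0.154). THRSP, a small lipogenic protein, had levels of 4.55, 4.81 and 4.54 after siCtrl and 4.36, 4.31 and 4.43 after sißCat-mut, near the floor. Its decrease after sißCat-mut was 0.26 in size (log2 difference -0.26 ± 0.08, adjusted p = 0.0263), and it did not pass without siCtrl replicate 2 (-0.17, adjusted p = 0.138) or the first or second sißCat-mut array (adjusted p = 0.0651 and 0.0927).

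The genes that supply acetyl-CoA and related units moved in different directions. ACSS2, which activates acetate, was at 9.94, 10.08 and 10.05 after siCtrl, 9.82, 9.87 and 9.83 after sißCat-WT, 11.40, 11.37 and 11.19 after sißCat-mut and 10.96, 10.62 and 10.56 after sißCat-both. The 4 groups did not overlap. ACSS2 rose 2.46-fold after sißCat-mut (log2 difference 1.30 ± 0.10, adjusted p = 7.97e-07), the largest rise of any member in that group, and 1.61-fold after sißCat-both (0.69 ± 0.10, adjusted p = 0.000103).

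ACLY, which cleaves citrate and is the main source of cytosolic acetyl-CoA, was at 11.92, 11.97 and 11.99 after siCtrl, 11.98, 12.01 and 11.96 after sißCat-WT, 12.42, 12.42 and 12.33 after sißCat-mut and 11.74, 11.43 and 11.34 after sißCat-both. The sißCat-mut arrays were above and the sißCat-both arrays below all others. ACLY rose by 0.43 ± 0.09 after sißCat-mut (adjusted p = 0.00302) and fell by 0.46 ± 0.09 after sißCat-both (adjusted p = 0.00134), and the difference between these groups was -0.88 ± 0.09 (adjusted p = 1.48e-05).

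AACS, which activates ketone bodies for lipid synthesis, was at 8.65, 8.64 and 8.59 after siCtrl, 8.32, 8.33 and 8.27 after sißCat-WT, 8.53, 8.49 and 8.46 after sißCat-mut and 8.07, 8.09 and 7.996 after sißCat-both. All 3 knockdown groups lay below siCtrl without overlap, and sißCat-both was the lowest. AACS fell by 0.32 ± 0.06 after sißCat-WT and 0.57 ± 0.06 after sißCat-both (adjusted p = 0.00584 and 1.06e-05), and its change after sißCat-mut was -0.13 ± 0.06 (adjusted p = 0.167).

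The carboxylases and the synthase of fatty acids differed from gene to gene. ACACB, the carboxylase at the mitochondrial surface whose malonyl-CoA restrains fatty acid oxidation, was at 7.48, 7.46 and 7.37 after siCtrl, 7.21, 7.01 and 7.09 after sißCat-WT, 7.80, 7.70 and 7.61 after sißCat-mut and 8.23, 8.04 and 8.16 after sißCat-both. The 4 groups did not overlap, and their order was that of MLXIPL. ACACB rose 1.63-fold after sißCat-both (log2 difference 0.71 ± 0.08, adjusted p = 1.39e-05), fell by 0.34 ± 0.08 after sißCat-WT (adjusted p = 0.0182) and rose by 0.27 ± 0.08 after sißCat-mut (adjusted p = 0.027). The last 2 calls each ended when any of 4 single arrays was left out (adjusted p up to 0.0892 and 0.108).

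ACACA, the cytosolic carboxylase that commits acetyl-CoA to fatty acids, was at 9.99, 10.06 and 10.06 after siCtrl, 10.03, 9.99 and 10.01 after sißCat-WT, 10.09, 10.03 and 9.99 after sißCat-mut and 10.02, 9.79 and 9.83 after sißCat-both. None of its changes passed with all arrays, and its 95% confidence intervals were -0.19 to 0.13 after sißCat-WT and -0.16 to 0.16 after sißCat-mut. Without the first sißCat-both array its change in that group was -0.23 (adjusted p = 0.0267). FASN, which builds palmitate, was at 10.84, 10.79 and 10.83 after siCtrl, 11.13, 10.82 and 10.79 after sißCat-WT, 11.22, 11.14 and 10.95 after sißCat-mut and 10.92, 10.53 and 10.49 after sißCat-both. The changes of FASN were 0.10 ± 0.12, 0.28 ± 0.12 and -0.17 ± 0.12 in that order of knockdowns. None passed with all arrays of the 4 groups fitted without a replicate block (adjusted p = 0.752, 0.116 and 0.32). The change after sißCat-mut passed with only the groups compared and with the replicate block (adjusted p = 0.0355 and 0.0365). It was lower after sißCat-both than after sißCat-mut (-0.45 ± 0.12, adjusted p = 0.0151), a call that ended without the first sißCat-mut array or without sißCat-both replicate 2 or 3 (adjusted p = 0.0588 to 0.0684). Without the first sißCat-both array its change against siCtrl was -0.31 (adjusted p = 0.0444).

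Of the 5 desaturation and elongation genes 3 rose after sißCat-mut, and 0 passed limma against siCtrl after sißCat-WT or sißCat-both, also 0 at an unadjusted p under 0.05. ELOVL6, which extends palmitate, stood at 8.51, 8.54 and 8.50 after siCtrl, 8.71, 8.58 and 8.39 after sißCat-WT, 9.22, 9.23 and 9.05 after sißCat-mut and 8.72, 8.42 and 8.51 after sißCat-both. The sißCat-mut arrays were above all others, which overlapped among themselves. ELOVL6 rose 1.57-fold after sißCat-mut (log2 difference 0.65 ± 0.10, adjusted p = 0.00021), and its change after sißCat-both was 0.04 ± 0.10, lower than after sißCat-mut by 0.61 (difference -0.61 ± 0.10, adjusted p = 0.000462).

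FADS2, the first desaturase of polyunsaturated fatty acids, was at 8.02, 7.94 and 7.88 after siCtrl, 8.06, 8.02 and 7.82 after sißCat-WT, 8.43, 8.50 and 8.43 after sißCat-mut and 8.02, 7.96 and 7.87 after sißCat-both, again with only the sißCat-mut arrays apart. It rose by 0.50 ± 0.08 after sißCat-mut (adjusted p = 0.000365) and was lower after sißCat-both than after sißCat-mut by 0.50 ± 0.08 (adjusted p = 0.00053). SCD, which makes oleate, rose by 0.23 ± 0.07 after sißCat-mut from levels above 13 (adjusted p = 0.0209). Its call ended without siCtrl replicate 1 (adjusted p = 0.0586), siCtrl replicate 3 (0.0761), or the first (0.0662) or second (0.0558) sißCat-mut array. With renewed quantile normalization the change of SCD was 0.06 (adjusted p = 0.609). The second probe set of SCD had group means of 8.93 after siCtrl, 8.90 after sißCat-WT, 9.30 after sißCat-mut and 8.97 after sißCat-both. ELOVL5 and FADS1, which act on polyunsaturated chains, had changes of 0.16 ± 0.09 and 0.21 ± 0.09 after sißCat-mut (adjusted p = 0.216 and 0.112), and that of FADS1 passed with renewed quantile normalization (adjusted p = 0.0375).

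In the glycerolipid branch, DGAT2, the acyltransferase that favours newly made fatty acids, rose most after sißCat-both. Its level was 7.14, 7.01 and 7.14 after siCtrl, 7.31, 7.42 and 7.38 after sißCat-WT, 8.24, 8.01 and 7.96 after sißCat-mut and 8.46, 8.54 and 8.43 after sißCat-both. The 4 groups did not overlap, with siCtrl the lowest. DGAT2 rose 2.61-fold after sißCat-both (log2 difference 1.38 ± 0.08, adjusted p = 5.41e-08) and 1.96-fold after sißCat-mut (0.97 ± 0.08, adjusted p = 2.00e-06), and sißCat-both was above sißCat-mut by 0.41 ± 0.08 (adjusted p = 0.00279). After sißCat-WT its change was 0.28 ± 0.08 (adjusted p = 0.0527), and this passed without the first sißCat-mut array (adjusted p = 0.0297), without dim genes (0.0264), with array weights (0.0189) and with only the groups compared (0.0405).

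DGAT1, the other enzyme of the same final step, was called higher against siCtrl in no group. It was at 10.60, 10.55 and 10.55 after siCtrl, 10.15, 9.999 and 9.91 after sißCat-WT, 10.56, 10.51 and 10.46 after sißCat-mut and 10.51, 9.96 and 10.22 after sißCat-both, with wide spread in the last group. DGAT1 fell 1.46-fold after sißCat-WT (log2 difference -0.54 ± 0.11, adjusted p = 0.00754) and by 0.34 ± 0.11 after sißCat-both (adjusted p = 0.0345). The second of these calls ended without sißCat-both replicate 2 (-0.20, adjusted p = 0.153) or replicate 3, or any 1 siCtrl array (adjusted p = 0.0699 to 0.0926), with renewed quantile normalization (0.0675) and with only the groups compared (0.0808).

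LPIN1, the phosphatidate phosphatase that makes diacylglycerol, was at 7.02, 7.18 and 7.10 after siCtrl, 6.76, 6.75 and 6.94 after sißCat-WT, 7.96, 8.35 and 8.22 after sißCat-mut and 8.12, 7.72 and 7.60 after sißCat-both. The sißCat-mut and sißCat-both arrays overlapped and lay above the rest. LPIN1 rose 2.11-fold after sißCat-mut and 1.64-fold after sißCat-both (log2 differences 1.08 ± 0.13 and 0.72 ± 0.13, adjusted p = 3.62e-05 and 0.000621). PNPLA3, a lipid droplet protein, rose by 0.60 and 0.66 in the same groups (adjusted p = 0.000281 and 8.21e-05).

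**Figure D3:**
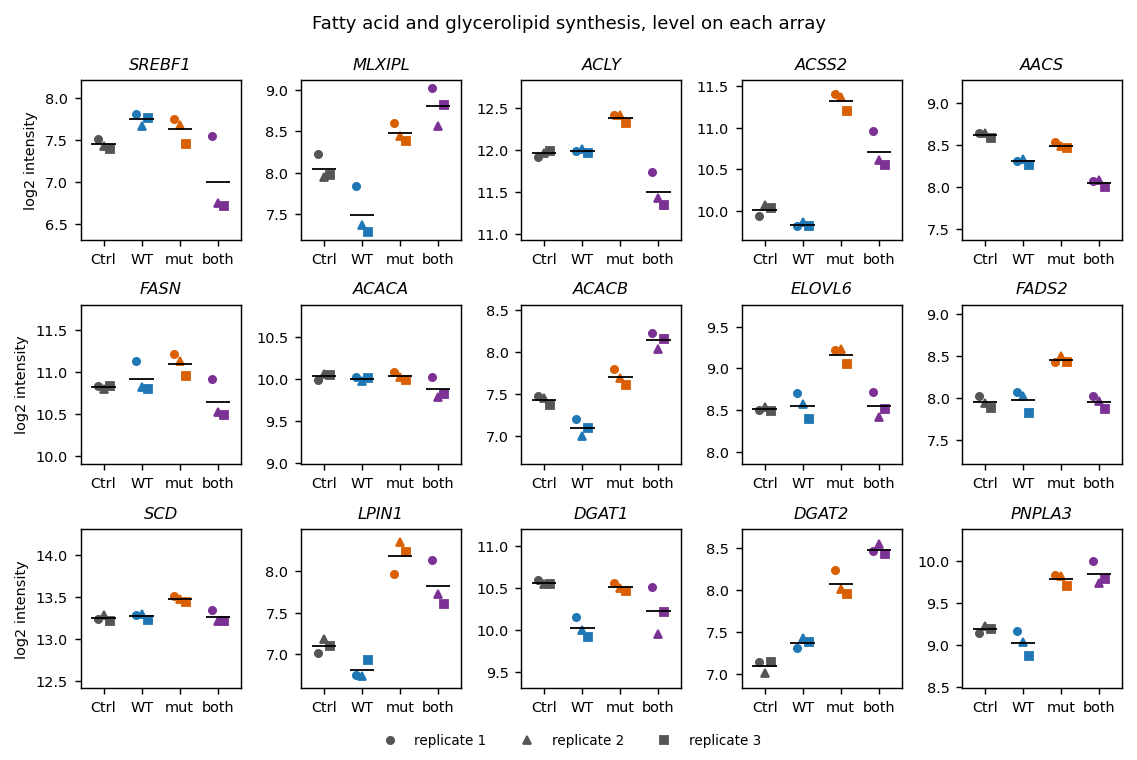
Log2 intensity (vertical axis) of 15 genes of fatty acid and glycerolipid synthesis on each of the 12 arrays, by group, with a symbol for each replicate number and a bar at the group mean; each panel has its own scale. ACLY, ELOVL6 and FADS2 lie above every siCtrl array after sißCat-mut, and after sißCat-both overlap siCtrl (ELOVL6, FADS2) or lie below it (ACLY), DGAT2 and ACACB are highest after sißCat-both, and the first sißCat-both array of SREBF1 (7.55) lies above the other 2 (6.75 and 6.71).

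The departure from additivity asks whether the change after sißCat-both equals the sum of the changes after the single knockdowns, and it is the difference sißCat-both minus sißCat-WT minus sißCat-mut plus siCtrl on the log2 scale. It passed for 9 of the 38 members, 3 above and 6 below the sum, beside 7.6% and 8.79% of all genes (16.4% in all). Whether the share of the members exceeds that of all genes was not tested. The median over the members was -0.003. The members below the sum were SREBF1 (-0.93 ± 0.24, adjusted p = 0.0182), ACLY (-0.91 ± 0.13, 0.00035), ELOVL6 (-0.65 ± 0.14, 0.00503), FASN (-0.55 ± 0.17, 0.0435), FADS2 (-0.52 ± 0.11, 0.00647) and FDPS (-0.51 ± 0.15, 0.0367). Those above it were MLXIPL (0.88 ± 0.21, 0.0102), ACACB (0.78 ± 0.12, 0.00048) and SQLE (0.29 ± 0.09, 0.0422). The calls of FDPS, FASN and SQLE ended when any of 8, 9 and 11 of the 12 arrays was left out (adjusted p up to 0.0908, 0.102 and 0.0972), and the other 6 held under every alternative tried. That of FASN also ended with renewed quantile normalization (adjusted p = 0.0554). Without the first sißCat-both array ACSS2 (-0.55, adjusted p = 0.00481) and DHCR7 (-0.34, adjusted p = 0.0338) were also below the sum.

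**Figure D4:**
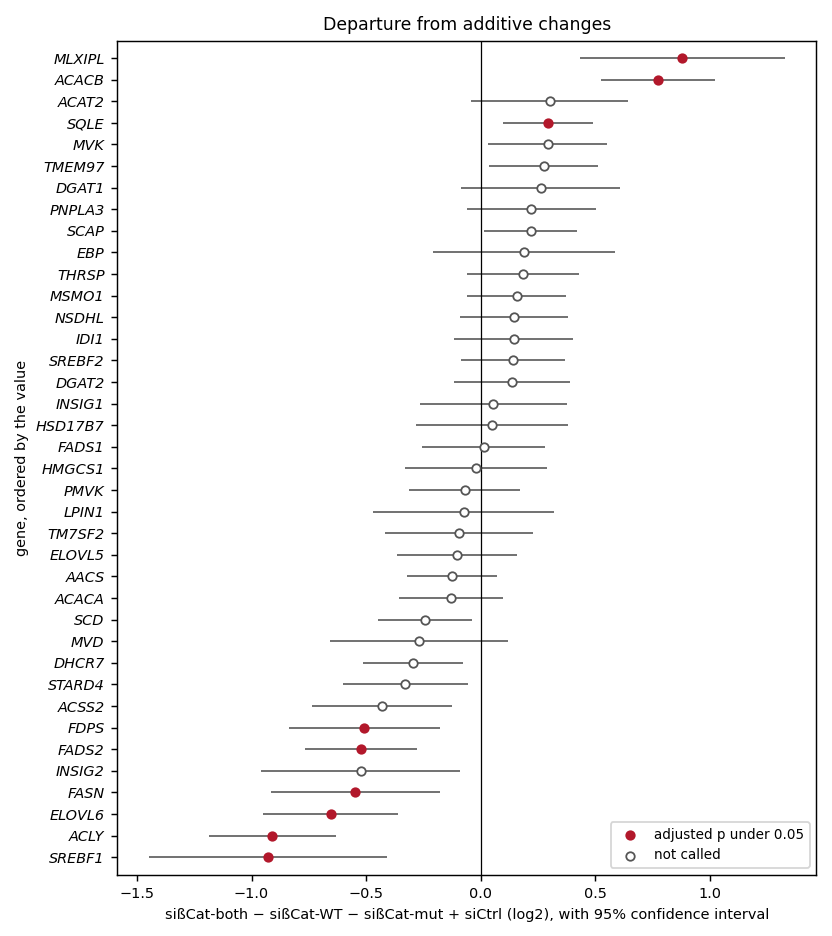
Departure from additive changes on the log2 scale (horizontal axis) with 95% confidence intervals for the 38 measured members, ordered by value; filled points passed an adjusted p under 0.05. SREBF1 and ACLY lie lowest at -0.93 and -0.91, and MLXIPL and ACACB highest at 0.88 and 0.78.

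Other genes of the same pathways, taken from a list of 106 symbols for sterol uptake and export, further sterol enzymes and further lipid enzymes, were measured for 57. After sißCat-WT 5 of them rose and 9 fell, beside 5.2% and 4.97% of all genes. After sißCat-mut 23 rose and 12 fell (12% and 13.6% of all genes), and after sißCat-both 21 rose and 11 fell (15.5% and 18.1%). Their median log2 changes were -0.02, 0.14 and 0.08. SOAT2, which esterifies cholesterol in hepatocytes, fell 2.71-fold after sißCat-WT and rose 1.82-fold after sißCat-mut (log2 differences -1.44 ± 0.09 and 0.87 ± 0.09, adjusted p = 5.30e-06 and 1.46e-05). MTTP, which loads lipid onto nascent lipoproteins, and the fructose kinase KHK fell by 0.97 and 0.81 after sißCat-WT, while the glycerol phosphate acyltransferase GPAT3, PAQR3 and the ubiquitin ligase MYLIP rose by 0.69, 0.48 and 0.45 (adjusted p = 2.02e-05, 0.000887, 0.00142, 0.00355 and 0.0232).

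After sißCat-mut the acyltransferase MOGAT2, the lipid droplet gene CIDEB and the nuclear receptor PPARG rose most of these genes, 2.61-fold, 2.11-fold and 2.07-fold, and the sterol transporter GRAMD1A, citrate synthase CS and the transketolase TKT fell most, by 1.16, 0.73 and 0.73 on the log2 scale (adjusted p = 1.21e-06, 2.33e-05, 7.98e-06, 2.51e-07, 0.000132 and 6.15e-05). After sißCat-both ELOVL3, an elongase of saturated chains, was called higher from a siCtrl level of 4.12, below the array medians, so that the size of its change could not be read. The fatty acid ligase ACSL1 and the lipoprotein receptor VLDLR rose 2.73-fold and 2.46-fold (adjusted p = 2.33e-07 and 8.10e-06). GRAMD1A, TKT and POGLUT1 fell most, by 1.13, 1.12 and 0.97 (adjusted p = 1.67e-07, 8.09e-07 and 2.71e-06). POGLUT1 was counted with the listed genes, but its symbol names a protein glucosyltransferase and not a sterol enzyme. VLDLR had fallen by 0.48 after sißCat-mut (adjusted p = 0.022), and its level after sißCat-both was above that after sißCat-mut by 1.78 ± 0.14 (adjusted p = 2.02e-06).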

How the data were processed

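RNA of 12 HepG2 samples in 4 siRNA groups was hybridised as biotin-labelled cDNA to Affymetrix arrays. The authors deposited log2 intensities of 53617 probe sets, and the submitters' processing notes name RMA and Expression Console 1.1 (Affymetrix) as the tools. RMA subtracts background, equalises the distributions of the arrays and summarises probes, so a change common to most genes is lost and changes at the floor shrink. That the scale is log2 was read from the range of the values, genes were not centred, and the array medians are given with the results. The annotation named 16098 probe sets with 1 symbol, 0 with several, and left 37519 unnamed. All 16098 identifiers matched the RefSeq gene table and 0 symbols changed. For each gene the probe set with the highest mean was kept (14884 genes). FDPS and SCD were the members with 2 probe sets.

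limma 3.58.1 (R 4.3.3) estimated a mean for each of the 4 groups from all 12 arrays (8 residual degrees of freedom, median 13.3 with the prior), with two-sided tests and Benjamini-Hochberg adjustment over all genes within each of 7 contrasts. The steps were tested on simulated data. Members and gene lists were chosen with earlier results of these data known, so no p-value was adjusted over the list alone. Every measured member may be named. Array values were given for the called member with the largest change in each role and knockdown, for SREBF1, SREBF2, INSIG1 and INSIG2, and for 7 further members picked after their values were seen: SQLE, FDPS, FASN, ACACA, FADS2, ACLY and THRSP. Of other pathway genes, up to 3 called genes in each direction per knockdown were named. Alternatives were renewed quantile normalization, median centring, leaving out genes under the 40th percentile, the mean of probe sets, only the groups compared, array weights, the replicate number as a block, and leaving out arrays.

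Titles number the replicates 1 to 3 in each group. The correlations of same-numbered arrays' deviations from their group means were 0.115, 0.155 and 0.134 for sißCat-both against sißCat-WT, all above 0.1. Arrays of different number reached 0.154 elsewhere (sißCat-both replicate 2 with siCtrl replicate 1). This check therefore does not establish that the numbers pair these groups, and the labels do not state a pairing. In the other 5 comparisons at least 1 pair was below 0.1.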

Additional observations from a re-analysis of the deposited data

Results flagged for a closer look

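The change after sißCat-both departed from the sum of the changes after the single knockdowns for 9 of 38 members (23.7%, beside 16.4% of all genes). This is by the test of the difference itself in limma, at an adjusted p under 0.05 (3 arrays per group). How far each form was lost in each group was not analysed here, and its part in these departures was not tested. The departures from additivity on the log2 scale were -0.93 for SREBF1, -0.91 for ACLY, -0.65 for ELOVL6, -0.55 for FASN, -0.52 for FADS2 and -0.51 for FDPS, and 0.88 for MLXIPL, 0.78 for ACACB and 0.29 for SQLE. Whether the share of 23.7% exceeds the 16.4% of all genes was not tested. The count is therefore not shown to be particular to these members. The calls of FDPS, FASN and SQLE ended when any of 8, 9 and 11 single arrays was left out. The other 6 calls held under every alternative tried. No outlier test was run on groups of 3 arrays.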

How the results depend on the processing

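The number of members called after sißCat-WT against siCtrl was 11 with all arrays and between 4 and 12 when 1 array was left out. The count over all genes in that comparison was 1513, and it was 950 without siCtrl replicate 2, 917 without sißCat-WT replicate 2 and 957 without sißCat-WT replicate 3. In the other 6 comparisons the number of members called stayed within 1.5 times its value under every alternative. No called member changed sign: among the recomputed values of single members 5030 kept their side of the threshold, 169 lost a call and 69 gained one. With the replicate number as a block the members called were 11, 31 and 25 after sißCat-WT, sißCat-mut and sißCat-both, 33 for sißCat-mut against sißCat-WT, 29 for sißCat-both against sißCat-WT, 20 for sißCat-both against sißCat-mut and 10 for additivity. In the comparison of sißCat-both with sißCat-WT the block added FASN (-0.27, adjusted p = 0.0329) and FADS1 (0.22, adjusted p = 0.0456) and changed no other call. Without dim genes INSIG1 and THRSP gave no value. With 3 arrays a group, and levels at the array floor for INSIG1 and THRSP, small changes of these genes could not be read.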
